A study of Mus musculus with 4 samples.

Results

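Squamous-like keratinizing cells were picked out of 4 single-cell RNA-seq libraries of mouse mammary organoids by their own RNA. A cell was taken when the counts of 4 genes, Krt16, Krt6b, Krtdap and Sprr1b, summed to at least 300 CPM, a count scaled to the cell's total over all genes. Cells also had to show 1000 to 6000 detected genes and under 5% mitochondrial counts. The rule found 298 cells among 17360 that passed the cell filter, and among 33268 barcodes in all. There were 101 in the wild-type control library, 119 in the wild-type hydroxyurea (HU) library, 40 in the Brca2mut/WT control library and 38 in the Brca2mut/WT HU library. Every list of 4 values below follows this order of libraries. Because measured values chose these cells, the levels of the 4 rule genes are a description and carry no test.

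The organoids were 3-dimensional cultures of primary mammary epithelial cells, dissociated with TrypLE and profiled by 10x droplet sequencing, in which each RNA molecule is counted once through a unique molecular identifier (UMI). One genotype was wild type and the other carried 1 mutant Brca2 allele, and each was grown untreated or with HU, an inhibitor of ribonucleotide reductase that stalls DNA replication. Each condition is 1 library, which by its label pools 2 replicates, so conditions have no replicate libraries and no test between them was run. The labels give neither the age of the donor mice nor the passage of the organoids, although the study worked with early and late passages. The libraries held 302135155, 258821284, 243430259 and 258118001 gene UMIs, and cells that passed the filter had medians of 24180, 24249, 24576 and 26893 UMIs.

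Stratified squamous epithelia such as the epidermis are renewed from a basal layer that expresses Krt5, Krt14 and the transcription factor p63. Cells that leave this layer lose contact with the basement membrane, strengthen their desmosomes and build the cornified envelope, a shell of crosslinked proteins under the plasma membrane that is sealed by lipids. Krt6a, Krt6b, Krt16 and Krt17 are keratins of wounded and rapidly renewing epidermis, Krtdap is a small secreted protein of differentiating keratinocytes, and Sprr1b is an envelope precursor. The mammary epithelium has basal cells, which share Krt5, Krt14 and p63 but are contractile, and luminal cells with simple keratins. Patches of squamous differentiation are known in mammary tissue and in cultured mammary cells.

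Envelope genes are a classic target of the transcription factor AP-1, a dimer of Fos and Jun proteins, and the promoter sequences of 4 envelope or keratinocyte genes are printed here because each holds the AP-1 letters. Krtdap and Sprr1b chose the cells, Sprr1a is described below, and Ivl was seen in few of them. The 250 bases before the start of each gene are given 5′ to 3′ on the gene's own strand, from RefSeq annotation of GRCm38.p6, with matches to TGANTCA on either strand in capitals. They lie at chr7:30787655-30787904 on the plus strand for Krtdap, and on the minus strand at chr3:92438780-92439029 for Sprr1b, chr3:92485882-92486131 for Sprr1a and chr3:92573736-92573985 for Ivl.
Krtdap: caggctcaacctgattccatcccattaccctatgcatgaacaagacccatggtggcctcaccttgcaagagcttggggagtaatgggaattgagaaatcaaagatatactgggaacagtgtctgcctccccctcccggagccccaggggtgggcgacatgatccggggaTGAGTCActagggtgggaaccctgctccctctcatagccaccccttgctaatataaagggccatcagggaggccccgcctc
Sprr1b: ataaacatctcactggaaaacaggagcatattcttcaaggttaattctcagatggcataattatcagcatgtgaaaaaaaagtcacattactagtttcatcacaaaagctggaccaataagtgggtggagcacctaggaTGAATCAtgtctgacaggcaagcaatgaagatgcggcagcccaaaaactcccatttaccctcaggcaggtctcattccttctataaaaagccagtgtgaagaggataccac
Sprr1a: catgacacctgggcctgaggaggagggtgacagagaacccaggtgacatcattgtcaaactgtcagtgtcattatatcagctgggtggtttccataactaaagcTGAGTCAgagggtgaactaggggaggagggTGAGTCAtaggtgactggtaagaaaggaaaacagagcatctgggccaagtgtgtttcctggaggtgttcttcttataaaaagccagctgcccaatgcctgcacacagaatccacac
Ivl: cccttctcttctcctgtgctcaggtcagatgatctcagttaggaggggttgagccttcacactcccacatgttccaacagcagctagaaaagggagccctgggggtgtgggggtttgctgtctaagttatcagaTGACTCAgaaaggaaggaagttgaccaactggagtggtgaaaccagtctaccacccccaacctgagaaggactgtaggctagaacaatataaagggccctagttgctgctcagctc

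The match began 81 bases before the start of Krtdap, 111 bases before Sprr1b and 116 bases before Ivl, and Sprr1a had 2 matches, at 146 and 116 bases. Krt16, Krt6a and Krt6b have no promoter in the sequence table used. Among 36 genes of a cornified envelope list with a promoter, 16 (44.4%) held the letters, against 2113 of 27025 promoters of all genes (7.82%). Many of the 36 are neighbouring copies of one another on chromosome 3, so they are not independent. Of the promoters of genes higher in squamous-like than in basal cells, by the test given further on, 46 of 357 (12.9%) held a match, against 40 of 575 genes lower than in basal cells (6.96%) and 557 of 9873 tested genes (5.64%). The TATA box letters TATAAA, searched in the same way, were in 16 of the 36 envelope promoters too (44.4%), against 14.3% of all promoters. They were in 44 of 357 promoters of higher genes (12.3%), 59 of 575 of lower genes (10.3%) and 760 of 9873 of tested genes (7.70%). The higher genes include genes scarce in basal cells that passed the filter through the squamous-like cells alone, so these shares are a description. A match describes these letters in this window and is neither a bound site nor a cause.

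The 4 rule genes were all but absent from the cells used for comparison, by construction. Basal cells (Krt14 of at least 500 CPM) and hormone receptor-negative (HR-) luminal cells (Krt14 and Areg each under 300 CPM) were taken from the same libraries when their summed rule genes stayed under 50 CPM. These classes held 1743 and 13497 cells. Another 250, 455, 83 and 72 filtered cells lay between 50 and 300 CPM and were left out of all classes, so comparisons skip the middle of the range. Krt16 reached 1761, 1834, 2619 and 1816 CPM over the summed squamous-like cells, and 2.52, 3.67, 1.28 and 2.06 CPM in basal cells. Krtdap stood at 668, 1341, 1893 and 1673 CPM, Krt6b at 742, 483, 2096 and 324 CPM, and Sprr1b at 763, 192, 1271 and 79.0 CPM. Single cells carried much of Krt6b and Sprr1b. In the Brca2mut/WT libraries 1 cell held 64.1% and 66.8% of the Krt6b UMIs, and in the control libraries 1 cell held 41.0% and 54.7% of the Sprr1b UMIs.

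Most of the 298 cells entered through Krt16 or Krtdap. Krt16 was the strongest of the 4 genes in 131 cells, Krtdap in 101, Sprr1b in 36 and Krt6b in 30. All 4 genes were detected in 80 cells and only 1 of them in 92 cells, of which 33 rested on a single UMI. The summed level spread widely, with medians of 1113, 945, 986 and 575 CPM and highest cells at 34076, 87622, 87033 and 24098 CPM. Near the threshold, 14, 18, 6 and 9 cells lay between 300 and 400 CPM, while 16, 27, 7 and 13 cells lay between 200 and 300 CPM and were not taken. The lowest cells taken had 301, 304, 317 and 301 CPM and the highest left out 294, 299, 288 and 298 CPM, so the class is a range cut from a gradient. No barcode of these cells recurred in another library.

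**Figure D1:**
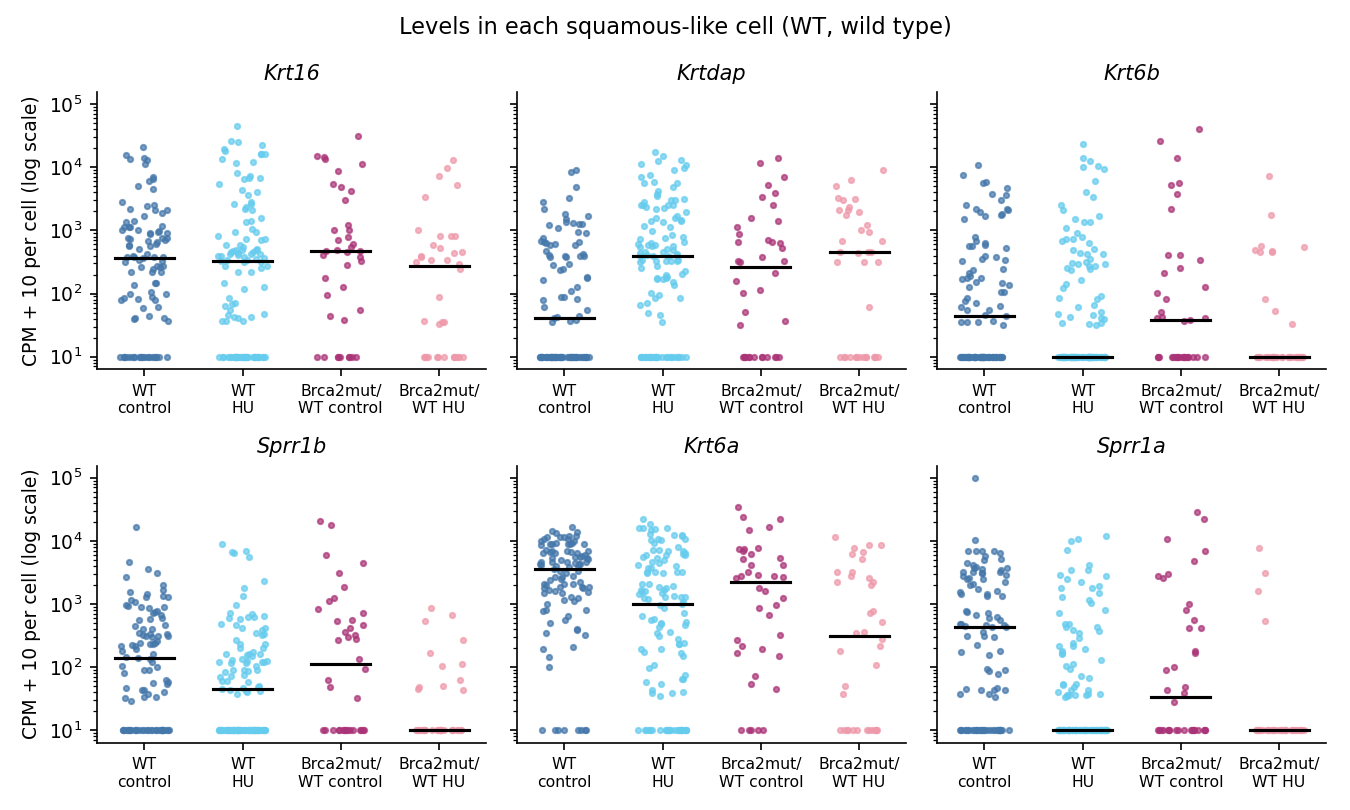
CPM per squamous-like cell, plotted as CPM + 10 on a log axis, for Krt16, Krtdap, Krt6b, Sprr1b, Krt6a and Sprr1a in each library; 1 point is 1 cell and the bar is the median. The first 4 genes chose the cells. Median Krt6a runs from 299 to 3526 CPM, while median Sprr1a is 0 in both HU libraries.

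Krt6a, a marker of the label that the rule did not use, checked the identity of the cells. It was measured at 5016, 3013, 4880 and 2684 CPM in squamous-like cells, 335, 99.1, 186 and 132 CPM in basal cells, and 12.4, 10.8, 5.60 and 7.98 CPM in HR- luminal cells. In every library the summed level was highest in squamous-like cells and lowest in HR- luminal cells. A Krt6a UMI was found in 92.1%, 79.8%, 87.5% and 65.8% of squamous-like cells, against 24.4%, 21.8%, 10.2% and 11.6% of HR- luminal cells, which should lack it and set the background, and 47.3%, 31.6%, 33.2% and 22.5% of basal cells. With every cell thinned to 5000 UMIs, and shallower cells left out, the shares were 95.5%, 69.7%, 90.3% and 77.8% in squamous-like cells, 5.96%, 4.91%, 2.67% and 2.94% in HR- luminal cells and 33.1%, 15.8%, 22.7% and 11.6% in basal cells. Thinning kept 89, 99, 31 and 27 squamous-like cells. Single cells of the classes thus overlapped, and 8, 24, 5 and 13 squamous-like cells had no Krt6a UMI.

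Krt14 and Trp63, which mark basal cells, were both measured in them. Of the squamous-like cells, 94.1%, 85.7%, 82.5% and 73.7% passed the Krt14 threshold of basal cells. Krt14 itself, which also chose the basal class and so is untested, stood at 27417, 16630, 18627 and 18998 CPM, above the 6710, 6366, 4849 and 4380 CPM of basal cells in every library. Trp63, the gene of p63, was 48.8, 51.8, 59.5 and 50.5 CPM in squamous-like cells and 53.2, 58.4, 68.4 and 79.1 CPM in basal cells. The fitted log2 difference of -0.17 ± 0.14 (SE) did not pass (adjusted p = 0.39, edgeR's quasi-likelihood test), whereas Trp63 was 2.44 ± 0.14 higher than in HR- luminal cells (adjusted p = 5.6e-08, same test). Markers of cells from outside the epithelium were at or near 0. Of 5 immune markers, 4 had no UMI and Cd79a had 1, while Cdh5 and Kdr of 3 endothelial markers had none. The third, Pecam1, was 0.356, 1.05, 0 and 5.49 CPM, the last above the 0.688 CPM of basal cells in that library. Summed stromal markers were 2.14, 55.0, 2.16 and 0 CPM, and a single cell held 96.1% of the Dcn behind the second value.

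Among all filtered cells, the share of squamous-like cells was lowest in the Brca2mut/WT control library and highest in the wild-type HU library. With the threshold for taking cells at 500 CPM, the lowest share was instead that of Brca2mut/WT HU, 0.607% against 0.701% in Brca2mut/WT control. They made up 1.90% (95% Clopper-Pearson interval 1.55 to 2.31) of filtered cells in the wild-type control library and 2.58% (2.14 to 3.08) in the wild-type HU library. In the Brca2mut/WT libraries the shares were 0.967% (0.691 to 1.31) in control and 1.15% (0.818 to 1.58) with HU. Intervals cover counting error only. The control and HU intervals overlapped within each genotype, and the wild-type control interval also overlapped that of Brca2mut/WT HU. Counted among Krt14-high cells, the shares were 12.5% (10.3 to 15.1), 11.4% (9.38 to 13.6), 9.82% (6.86 to 13.5) and 8.31% (5.59 to 11.8), and all 4 intervals overlapped. Krt14-high cells numbered 757, 896, 336 and 337.

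Within a library the shares varied more than between libraries. Cells carried 1 of 4 antibody tags, which label pools loaded together, but what each tag stood for is not given in the sources used here. In the wild-type control library, squamous-like cells were 0.367%, 3.17%, 0.407% and 6.67% of the cells of tags 1 to 4, and 4.07% of cells with no single tag. The tag 4 pool had the highest share among single tags in every library, at 6.67%, 7.45%, 1.71% and 3.76%. In the Brca2mut/WT control library, tag 2 had 0 of 710 cells, which allows a share of up to 0.423% (3 counts of the total, with a Clopper-Pearson upper bound of 0.518%). Passage, culture and mouse behind a tag cannot be told apart, so none of these differences can be set against replicates.

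**Figure D2:**
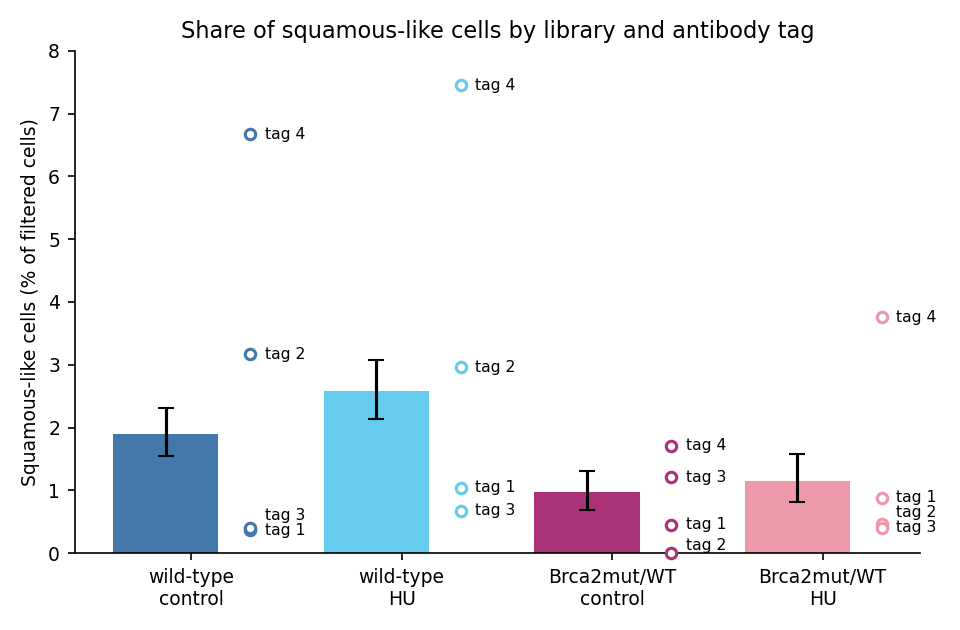
Squamous-like cells as a percentage of filtered cells (y axis) in each library (x axis); bars are the library's share, vertical lines 95% Clopper-Pearson intervals, and open points the shares in each antibody tag pool. Bars run from 0.967% to 2.58% and tag pools of the wild-type control library alone run from 0.367% to 6.67%.

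Median UMIs of squamous-like cells were 30185, 26290, 26787.5 and 27540.5, against 21033, 21422.5, 19334.5 and 20540 in basal cells and 24881, 25328.5, 25091.5 and 27726.5 in HR- luminal cells. Very shallow cells, those with less than 1/3 of their library's median UMIs, numbered 14, 25, 11 and 12 among squamous-like cells and 98, 47, 29 and 45 among basal cells. Mitochondrial shares had medians of 2.01%, 2.42%, 1.68% and 2.41%, below those of basal cells (2.41%, 2.91%, 2.22% and 2.5%) in each library. No single tag could be given to 23.8%, 27.7%, 25% and 31.6% of squamous-like cells, 23.7%, 24.5%, 11.7% and 18.0% of basal cells and 7.01%, 6.71%, 11.2% and 11.2% of HR- luminal cells. Doublets were not called, and their part in the results was not tested.

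The comparison with basal cells asks what sets these cells apart from the class whose Krt14 they share. Counts were summed over the cells of each class in each library, and the 12 sums were compared with edgeR's quasi-likelihood test, library as a block, with Benjamini-Hochberg adjustment over 12682 genes. A gene was called at an adjusted p under 0.05 and at least 2-fold. In squamous-like cells 506 genes (3.99%) were higher and 783 (6.17%) lower. The cells of both classes were chosen by genes that vary together with others, and a gene could pass the filter on low counts through 1 class alone, so p-values here measure how steady a difference was over 4 libraries of different conditions. Of the 506 genes, 457 were higher in all 4 libraries, 405 had a UMI in at least 3 squamous-like cells of every library, and for 51 a single cell held over 50% of the UMIs in at least 2 libraries. With only Krt14-high squamous-like cells, 444 genes were higher (4.01% of 11069) and 732 lower (6.61%), and 417 of the 506 were among those higher. In the values below, differences are log2 fold changes ± SE, positive where squamous-like cells are higher, and the median over all tested genes was -0.05. A gene that is scarce in basal cells passed the filter through the squamous-like sums and so had to differ. For genes under 3 CPM over all basal cells, levels are therefore given without a fold or test. The gene lists are counted only over tested members with at least 3 CPM there, a limit chosen after seeing the data. Of all 10792 such genes 323 (2.99%) were higher and 689 (6.38%) lower, with a median of -0.05. Genes scarce in squamous-like cells passed through the basal sums in turn. For those under 3 CPM over all squamous-like cells, no fitted fold or p-value is given, and every count of a list is a description.

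Keratins of stratified and stressed epidermis with a level in basal cells were mostly higher. Of 12 in the list, 5 had at least 3 CPM in basal cells and 4 of these were higher, none lower. Krt6a was 4.57 ± 0.28 higher than in basal cells (adjusted p = 8.8e-07). Krt17 was 818, 1304, 875 and 910 CPM against 331, 377, 308 and 354 CPM, a difference of 1.61 ± 0.09 (adjusted p = 5.7e-07), so every squamous-like value lay above every basal one. Krt79, a keratin of sebaceous and hair follicle duct cells, was 196, 401, 188 and 435 CPM against 30.4, 83.9, 29.6 and 22.2 CPM. Krt10 and Krt1 are the keratin pair of the suprabasal epidermis. Krt10 stood at 70.2, 195, 280 and 64.8 CPM against 17.7, 18.6, 17.7 and 14.5 CPM and was called at 3.13 ± 0.33. It had a UMI in 34.7%, 47.1%, 35% and 36.8% of squamous-like cells, against 33.6%, 35.0%, 30.5% and 36.4% of HR- luminal cells. Detection was thus near background except in the wild-type HU library, where the 95% interval was 37.8% to 56.4%. In each library 1 cell held 42.8% to 88.0% of the Krt10 UMIs. Krt1 was 10.7, 50.4, 45.4 and 3.29 CPM, seen in 4, 19, 6 and 3 cells, against 1.22, 0.75, 1.28 and 0.516 CPM. Krt5, the basal partner of Krt14, was 4810, 2706, 2321 and 4603 CPM against 2192, 2048, 1562 and 1501 CPM and just passed 2-fold, at 1.06 ± 0.19. It no longer did without the wild-type control library (0.97) or the Brca2mut/WT HU library (0.83). Krt15, another basal keratin, was lower by -1.47 ± 0.41, a call lost without either Brca2mut/WT library (-1.39 and -1.33), while without the wild-type HU library the difference was -2.78.

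Cornified envelope genes with a level in basal cells were nearly all higher. Of 44 in the list, 11 reached 3 CPM in basal cells, of which 10 were higher and none lower, and 5 of the 42 in the count table had no UMI in squamous-like cells. Summed over the list, levels were 10150, 4545, 8132 and 4346 CPM against 1370, 1159, 1129 and 1014 CPM in basal cells. Dmkn, a secreted protein of the upper epidermis, was 1395, 1075, 1874 and 996 CPM against 132, 117, 74.2 and 55.4 CPM and differed by 4.00 ± 0.27 (adjusted p = 1.7e-06). Sbsn, which neighbours Dmkn and Krtdap on chromosome 7, was 510.0, 384, 436 and 265 CPM against 57.7, 48.1, 45.2 and 26.5 CPM. Csta1, a cysteine protease inhibitor built into the envelope, was 483, 94.6, 239 and 109 CPM against 23.8, 2.77, 8.03 and 1.55 CPM, a difference of 4.91 ± 0.25 (adjusted p = 2.7e-07). Neither gene overlapped between the classes.

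The small proline-rich proteins were more uneven. Sprr1a, whose promoter is printed above, was 3536, 459.5, 1489.5 and 232 CPM against 149, 28.6, 88.7 and 75.2 CPM in basal cells. The difference of 3.84 ± 0.43 was called (adjusted p = 5.9e-05), although 1 cell held 52.6%, 20%, 49.2% and 46.9% of the UMIs in the 4 libraries. The envelope genes Ivl (involucrin) and Lor (loricrin) were present in few cells. Ivl, at 14.3, 4.55, 21.6 and 18.7 CPM, was detected in 6, 4, 4 and 2 cells, and Lor, at 2.14, 2.80, 13.0 and 3.29 CPM, in 5, 6, 4 and 2 cells. Tgm1, the transglutaminase that crosslinks the envelope, was 18.2, 13.3, 19.5 and 8.78 CPM against 3.31, 2.02, 2.37 and 3.96 CPM.

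Lipid genes of the skin barrier accompanied the envelope genes. Of 17 in the list, 8 reached 3 CPM in basal cells, of which 6 were higher and none lower (median 1.33). Fabp5, the epidermal fatty acid-binding protein, stood at 19594, 15096, 25896 and 18427 CPM in squamous-like cells, 1652, 1912, 728 and 738 CPM in basal cells, and 267, 222, 209 and 192 CPM in HR- luminal cells. Its difference from basal cells was 4.18 ± 0.29 (adjusted p = 1.8e-06). Sult2b1, which sulphates cholesterol, was steadier, at 68.1, 70.7, 79.0 and 68.1 CPM against 7.83, 9.67, 6.75 and 6.02 CPM, a difference of 3.31 ± 0.16. Cyp4f39, an ω-hydroxylase of very long fatty acids, was 44.2, 19.3, 38.9 and 38.4 CPM against 0.870, 1.42, 0.912 and 0.860 CPM. Elovl4, which elongates such fatty acids, was higher by 3.55 ± 0.61, by 4.74 without the wild-type HU library and by 2.92 without the Brca2mut/WT control library.

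**Figure D3:**
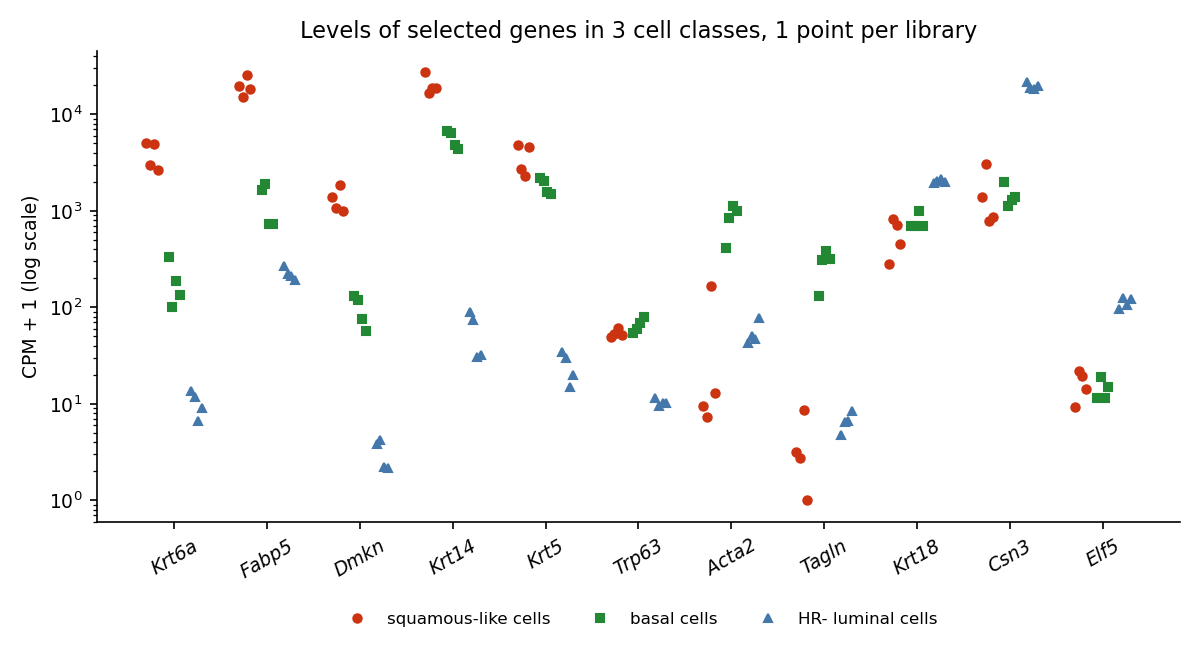
Summed level of 11 genes in squamous-like, basal and HR- luminal cells, as CPM + 1 on a log axis; each point is 1 of the 4 libraries. Krt6a, Fabp5 and Dmkn are highest in squamous-like cells, Krt14, Krt5 and Trp63 separate both squamous-like and basal cells from HR- luminal cells, and Tagln is high in basal cells alone, at 130 to 383 CPM.

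Junction genes followed the same direction. Of 20 in the list, 16 reached 3 CPM in basal cells, of which 10 were higher and none lower (median 1.33). Gjb2, which encodes the gap junction protein connexin 26, was 166, 180, 286 and 210 CPM in squamous-like cells, 3.39, 4.05, 2.55 and 7.05 CPM in basal cells and 6.37, 6.06, 9.08 and 8.78 CPM in HR- luminal cells. The difference of 5.71 ± 0.19 from basal cells (adjusted p = 1.2e-08) came from 37, 42, 21 and 8 cells with a UMI. Among desmosomal cadherins, Dsc3 was higher by 3.22 ± 0.22, Dsc2 by 2.21 and Dsg3 by 2.17 ± 0.12. Dsp, the plaque protein desmoplakin, was 893, 668, 844 and 854 CPM against 276, 322, 276 and 281 CPM, higher by 1.60 ± 0.11 (adjusted p = 1.4e-06).

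Of 20 epidermal proteases and inhibitors, 10 reached 3 CPM in basal cells, of which 5 were higher and none lower (median 1.19). Kallikreins, proteases that shed cells by cutting desmosomes, are part of the list, but Klk6, Klk7, Klk10 and Klk13 fell short of 3 CPM. Klk8 was 427, 393, 672 and 485 CPM against 97.4, 99.7, 110 and 82.8 CPM, higher by 2.44 ± 0.23. Klk6 reached 26.0, 281, 217 and 7.68 CPM and Spink5, the kallikrein inhibitor LEKTI, 107, 27.0, 132 and 2.20 CPM. Basal cells had 0.261, 3.45, 0.182 and 0.172 CPM of Klk6 and 1.04, 1.95, 1.64 and 0.688 CPM of Spink5, and both genes were lowest in the Brca2mut/WT HU library. Klk7 (171, 25.9, 115 and 2.20 CPM) and Klk13 (25.7, 25.2, 51.9 and 63.7 CPM) lay far above basal cells but rested on single cells, 1 cell holding at least 54.1% and 59.7% of their UMIs in every library.

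Transcription factors of epidermal differentiation were higher at smaller folds. Of 30 in the list, 25 reached 3 CPM in basal cells, of which 11 were higher and none lower, with a median of 0.60. Klf4, a factor of the suprabasal layers, was 137, 117, 174 and 156 CPM against 48.2, 58.0, 57.8 and 54.7 CPM, higher by 1.5 ± 0.14 (adjusted p = 1.2e-05). Grhl1, which acts on desmosomal genes, was 27.4, 23.8, 36.8 and 37.3 CPM against 5.48, 5.55, 4.93 and 6.19 CPM, higher by 2.53 ± 0.16 (adjusted p = 9.8e-07). Zfp750, a target of p63, differed by 2.95 ± 0.27 and Barx2 by 1.93 ± 0.17. In none of these 4 genes did the classes overlap.

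Of 37 wound and alarmin genes, 22 reached 3 CPM in basal cells, of which 10 were higher and none lower (median 0.67). S100a8, a subunit of the antimicrobial protein calprotectin, was 247, 89.0, 441 and 248 CPM against 17.6, 7.87, 32.8 and 8.95 CPM, higher by 4.02 ± 0.43, with 77.5% of the wild-type control UMIs in 1 cell. Its partner S100a9 was 42.1, 10.5, 133 and 3.29 CPM against at most 0.375 CPM in basal cells. Ly6g6c reached 211, 91.4, 206 and 103 CPM against 0.522, 1.05, 0 and 6.37 CPM. Defb14, an antimicrobial beta-defensin, was 191, 7.36, 4.33 and 1.10 CPM, with 99.3% of its wild-type control UMIs in 1 cell. Ly6d, a surface protein of keratinocytes, was 9262, 6332, 5493 and 4771 CPM against 3589, 3489, 2637 and 1372 CPM, higher by 1.38 ± 0.13.

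Retinoid and Notch genes did not move as groups. Of 19 retinoid genes, 13 reached 3 CPM in basal cells, of which 3 were higher and 3 lower (median 0.05). The 3 higher ones were Crabp2, which carries retinoic acid to its receptors, Stra6, a retinol importer, and Aldh1a3, which makes retinoic acid. Crabp2 stood at 956, 640, 1406 and 845 CPM against 152, 74.2, 127 and 106 CPM (3.17 ± 0.23, adjusted p = 2.4e-06). Of 14 Notch genes, 10 reached 3 CPM, of which 1 was higher and 2 lower. Nrarp, a feedback target of Notch, was the higher one, by 2.69 ± 0.16 (adjusted p = 7.7e-07), at 105, 68.6, 145 and 73.6 CPM against 18.5, 16.7, 15.9 and 11.2 CPM. The ligands Jag2 and Dll1 were lower, by -1.54 and -1.24. Of 11 EGF ligands and receptors, 9 with at least 3 CPM were tested, of which 2 were higher and none lower (median 0.50). Areg, at 84.7 CPM over all basal cells, defined a class and was left out of the tests.

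Most contractile genes of basal cells were lower in squamous-like cells. Of 11 contractile genes, 10 with at least 3 CPM in basal cells were tested, of which 7 were lower and none higher, with a median of -4.55. Summed over the list, levels were 1360, 932, 1231 and 949.6 CPM against 2227, 3152, 3539 and 3428 CPM in basal cells, and Cald1 was the most abundant member in squamous-like cells. Tagln (transgelin) was 2.14, 1.75, 7.57 and 0 CPM against 130, 311, 383 and 314 CPM, from 18 UMIs in all squamous-like cells against 9577 in basal cells. Acta2 (smooth muscle actin) was 8.55, 6.30, 167 and 12.1 CPM against 412, 835, 1111 and 991 CPM, lower by -4.56 ± 0.62 (adjusted p = 0.00024). In the Brca2mut/WT control library 1 cell held 70.1% of those Acta2 UMIs, and without that library the difference was -6.22. In most basal cells these genes were not detected either: an Acta2 UMI was found in 24.1%, 37.1%, 25.2% and 44.4% of them and a Tagln UMI in 11.5%, 18.7%, 17.5% and 25.7%. Among squamous-like cells, 12.9%, 11.8%, 20% and 18.4% had an Acta2 UMI, against 14.5%, 15.4%, 10.4% and 16.9% of HR- luminal cells. Myh11 (smooth muscle myosin) had no UMI in any squamous-like cell against 768 in basal cells, so it was at least 53.1-fold lower, taking a floor of 3 counts over all squamous-like cells. Putting Myh11 at this bound left the median of the list at -4.55. Actg2 had no squamous-like UMI either, against 109 in basal cells (3.02 CPM), at least 7.54-fold lower by the same floor. Myl9 differed by -4.65, by -6.24 without the Brca2mut/WT control library and by -4.04 without the wild-type HU library. Cnn1 had 9 UMIs in all squamous-like cells against 1225 in basal cells. Tpm2 (-0.74), Cald1 (-0.44) and Lmod1 (16 UMIs against 211) were not called.

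Basement membrane and adhesion genes were lower in 9 of 18, which all reached 3 CPM in basal cells, and higher in none (median -1.19). Col4a1 and Col4a2, the collagen IV chains, differed by -2.72 and -2.40. Sparc, a collagen-binding matrix protein, was 138, 110, 130 and 88.9 CPM against 568, 581, 667 and 791 CPM, lower by -2.33 ± 0.16 (adjusted p = 1.5e-06). Fn1 (fibronectin) was lower by -1.84, a call lost without the wild-type control (-1.13) or Brca2mut/WT HU library (-1.63), and -2.74 without the wild-type HU library. Col17a1, a hemidesmosomal collagen, was 109, 70.4, 77.9 and 96.6 CPM against 162, 155, 143 and 134 CPM, a difference of -0.67 ± 0.13 that fell short of 2-fold.

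**Figure D4:**
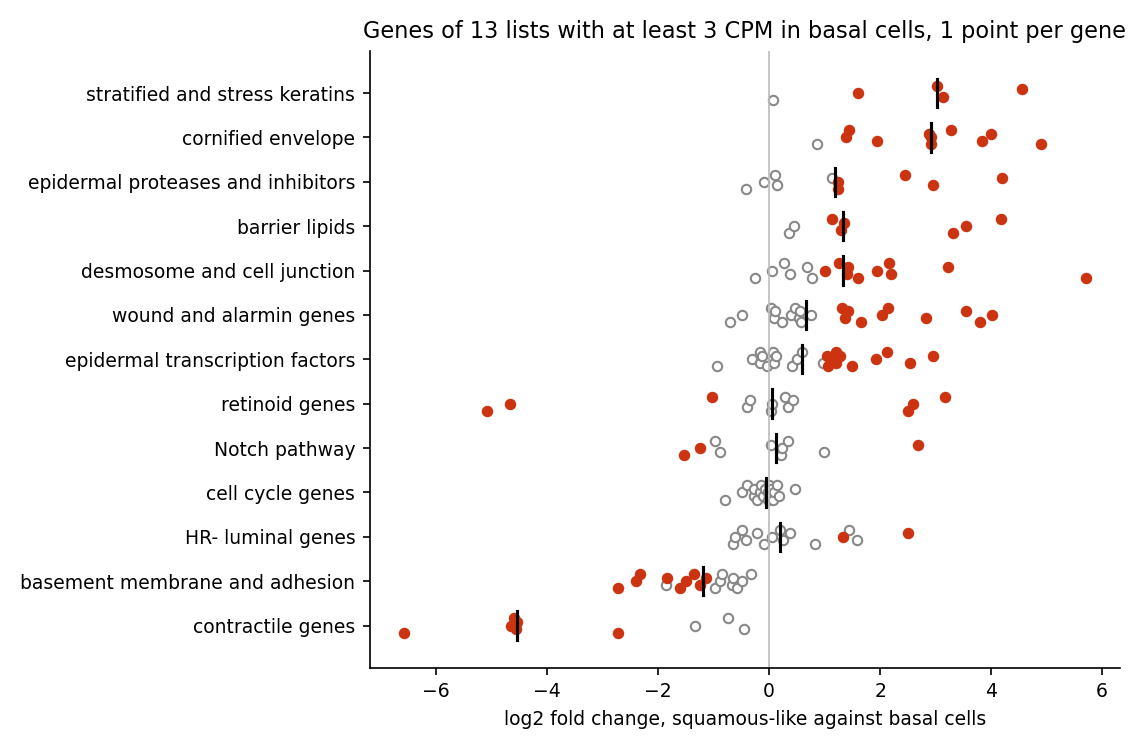
Log2 fold change of squamous-like against basal cells (x axis) for the tested genes of 13 gene lists with at least 3 CPM over all basal cells; filled red points passed the test and 2-fold, open grey points did not, and black bars are medians of the genes plotted. Stratified keratins, envelope, lipid, junction and protease lists lie mostly to the right and contractile genes to the left; Myh11, with no UMI in squamous-like cells, is not plotted.

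Lists without a call against basal cells were the cell cycle genes, simple keratins and control genes. None of the 20 cell cycle genes, which all reached 3 CPM, was called (median -0.05), none of 4 simple keratins (median -0.09) and none of 5 ribosomal and metabolic control genes. Krt18 was 278, 826, 714 and 453 CPM against 691, 693, 1004 and 698 CPM (-0.40 ± 0.20, adjusted p = 0.15). HR- luminal genes gave 2 higher and none lower of 15 that reached 3 CPM (13.3% higher, median 0.19). HR+ luminal genes gave 1 higher and none lower of 7 tested, and of 2 stromal markers 1 was lower. Calls in both directions were held by the p53, hypoxia, immediate early and interferon lists. Of 17 p53 targets that reached 3 CPM, 4 were higher and 1 lower (median -0.08), that is 23.5% and 5.88% against 2.99% and 6.38% of all such genes. Sfn and Perp, which led the 4, are also epidermal genes: Sfn was 1787, 1801, 2233 and 1963 CPM against 471, 465, 462 and 495 CPM (2.15 ± 0.10), and Perp, a desmosomal protein, differed by 1.95 ± 0.12. Cdkn1a (p21) was called at 1.06 but not without the Brca2mut/WT control library (0.83). Hypoxia genes gave 2 higher and 1 lower of 16, immediate early genes 2 and 2 of 18, and interferon genes 1 and 1 of 19 that reached 3 CPM.

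The rule for the largest differences also named genes outside the lists. Calm4, a calmodulin-like protein, was 137, 226, 263 and 19.8 CPM against 0.522, 0.900, 0.182 and 0 CPM, carried by 21, 37, 9 and 3 cells. It had 19 UMIs in all basal cells. Teddm3 was 78.4, 54.6, 103 and 76.8 CPM against 0.435, 0.675, 0.547 and 0.860 CPM. Cstdc5, a cystatin-like gene, was 1192, 347, 2206 and 269 CPM against 29.6, 5.55, 14.8 and 5.68 CPM (6.16 ± 0.43). Gsta1 (12.1, 19.6, 58.4 and 6.59 CPM) is uncertain, since 90.6% of the 50-base stretches at its 3′ end recur in Gm3776. Among the largest falls, Postn (periostin) was 1.78, 2.45, 7.57 and 0 CPM against 78.6, 95.9, 143 and 230 CPM. It had 19 UMIs in all squamous-like cells against 4305 in basal cells, and Ctla2a had 5 against 1156.

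Against HR- luminal cells, the most abundant class, 1500 genes (11.8%) were higher and 2030 (16%) lower in squamous-like cells, by the same test. Of the 506 genes higher than in basal cells, 385 were also higher than in HR- luminal cells, which is 76.1% of the first set and 25.7% of the second. Both contrasts use the same squamous-like sums. Of 10391 genes with at least 3 CPM over all HR- luminal cells, 762 (7.33%) were higher and 1709 (16.4%) lower. Among list members with that level, 5 of 5 envelope genes, 14 of 16 wound genes and 3 of 6 epidermal proteases and inhibitors were higher. Krt5 was 7.20 ± 0.24 higher (adjusted p = 5.8e-10) and Krt17 7.24 ± 0.12 (adjusted p = 3.2e-12).

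Secretory luminal genes were detected but low. Of 18 HR- luminal genes, 15 reached 3 CPM in HR- luminal cells, of which 12 were lower and none higher (median -3.17). Csn3 (kappa casein) was 1378, 3064, 789 and 873 CPM in squamous-like cells, 1983, 1111, 1288 and 1392 CPM in basal cells and 21474, 18871, 18329 and 19547 CPM in HR- luminal cells. The squamous-like values overlapped with those of basal cells and lay far below those of HR- luminal cells. Elf5, the luminal progenitor factor, was 8.20, 21.0, 18.4 and 13.2 CPM against 95.5, 125, 104 and 121 CPM in HR- luminal cells (-3.00 ± 0.15, adjusted p = 1.6e-08), and Kit differed by -3.52 ± 0.34 (-4.76 without the wild-type HU library). Interferon genes were lower in 13 of 19 with that level (median -1.55) and immediate early genes in 9 of 18 (median -0.97). Irf7 stood at 85.5, 162, 70.3 and 128 CPM against 587, 629, 689 and 693 CPM, a difference of -2.59 ± 0.20, and Fos at 172, 413, 181 and 243 CPM against 1238, 974, 1077 and 936 CPM, -2.20 ± 0.20.

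Some levels rose in steps along the summed rule genes, and others changed unevenly. Krt14-high cells were sorted into basal cells (under 50 CPM) and bins of 50 to 300, 300 to 1000, 1000 to 5000 and at least 5000 CPM; the last held 15, 24, 10 and 5 cells. Krt6a was higher at each step in all 4 libraries, in the wild-type control library from 335 through 1297, 3132 and 5039 to 9596 CPM and in the Brca2mut/WT HU library from 132 through 835, 1145 and 1843 to 8727 CPM. In the top bin, Fabp5 reached 42605, 34299, 75049 and 64126 CPM and Gjb2 449, 706, 831 and 930 CPM. Gjb2 did not rise at each step in the Brca2mut/WT libraries. At 1000 to 5000 CPM it was 0 CPM in Brca2mut/WT HU, and in Brca2mut/WT control it was 26.3 CPM at 50 to 300 and 14.6 CPM at 300 to 1000. In the top bin Itga6, an integrin of hemidesmosomes, was 107.5, 121, 8.93 and 35.3 CPM against 252, 196, 249 and 263 CPM in basal cells. Col17a1 there was 21.1, 26.0, 0 and 17.7 CPM against 162, 155, 143 and 134 CPM. The fall was not steady, since Itga6 in the wild-type control library was 269 CPM at 50 to 300 and 280 CPM at 300 to 1000. Mki67, a proliferation marker, was 1.92, 14.9, 4.47 and 11.8 CPM in the top bin, from 1, 4, 1 and 2 cells, against 33.8, 51.2, 23.0 and 33.7 CPM in basal cells. Lower bins did not all follow. It was 84.5 CPM at 300 to 1000 CPM in the wild-type HU library and 109 CPM at 50 to 300 CPM in the Brca2mut/WT control library, both above basal cells. Krt5 did not follow one direction, at 3825, 1781, 567 and 6662 CPM in the top bin. The bins are made from the rule genes of the same cells, so these values are a description.

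**Figure D5:**
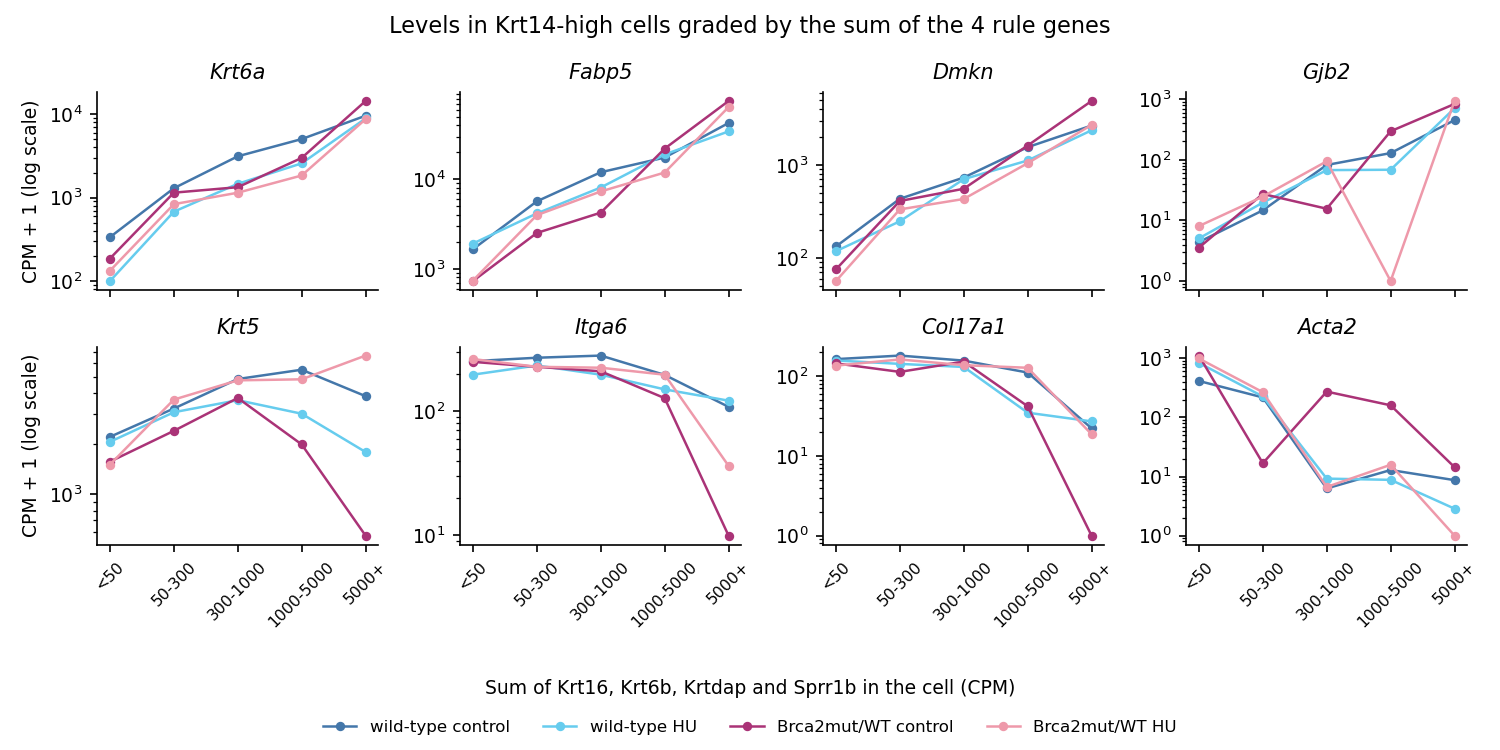
Summed level (CPM + 1, log axis) of 8 genes in Krt14-high cells sorted by the sum of the 4 rule genes (x axis, CPM bins); 1 line is 1 library. Krt6a climbs at each step in every library, while Itga6 and Col17a1 end lowest in the bin of at least 5000 CPM, which holds 5 to 24 cells per library.

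Among single squamous-like cells with at least 2 UMIs of the rule genes (92, 109, 34 and 30 cells), Krt6a ran with Krt14, Fabp5 and Dmkn and opposite to Krt18. Spearman's rho of Krt6a with Fabp5 was 0.50, 0.66, 0.75 and 0.69, with Dmkn 0.64, 0.59, 0.69 and 0.60, and with Krt18 -0.36, -0.42, -0.40 and -0.40. With Krt14 it was 0.77, 0.68, 0.44 and 0.70, but with Krt5, the partner of Krt14, it had no common direction, at 0.25, 0.02, -0.44 and 0.16. Krtdap ran with Lgals7, a galectin of stratified epithelia, at 0.58, 0.43, 0.37 and 0.64. Cells of 1 library share their preparation and were selected by the rule genes, so no test is given.

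Between conditions, genes were compared as levels over the squamous-like cells of each library, without a replicate check. Of 3152 genes with at least 50 CPM in 1 library, 19 (0.603%) were at least 2-fold higher and 29 (0.92%) lower with HU in both genotypes, computed with 1 CPM added. Apoe, which carries lipids, was 320 and 709 CPM with HU against 25.7 and 17.3 CPM without, and had a UMI in 38 and 15 cells against 14 and 7. Them5, a thioesterase, was 76.7 and 92.2 CPM with HU against 16.4 and 13.0 CPM, in 33 and 13 cells against 15 and 6. In each library 1 cell held 23.8% to 43.3% of the Apoe UMIs and 17.4% to 33.3% of the Them5 UMIs. The others named by the rule were AW112010 (98.4 and 622 CPM against 16.0 and 42.2), Ly6c1 (31.5 and 56.0 against 6.42 and 14.1) and Defb6, which was seen in 1 and 2 cells with HU. In each library 1 cell held 38.8% to 57.7% of the AW112010 UMIs, and for Ly6c1 1 cell held 61.5% and 88.2% in the Brca2mut/WT libraries. With the threshold for taking cells at 500 CPM the smaller of the 2 AW112010 log2 ratios turned to -1.81. Lower with HU were the late envelope genes Lce3c (0 and 0 CPM against 202 and 105) and Lce3f (0 and 0 against 285 and 61.7), Cnfn (2.10 and 0 against 63.1 and 200), Crct1 (24.9 and 0 against 436 and 51.9) and Cidea (8.76 and 3.29 against 61.7 and 34.6). In the control libraries 1 cell held 56.1% and 62.5% of the Cidea UMIs and 100% and 97.9% of the Lce3c UMIs, the latter seen in 1 and 2 cells. Cnfn and Crct1 came from 2 cells each in the wild-type control library, where 1 cell held 98.3% and 99.8% of their UMIs, and in cells with a single antibody tag at least 1 of their 2 log2 ratios turned, to 1.78 and 4.86. Without the cell holding most UMIs Crct1 turned to 0.26. Lce3f came from 1 and 2 control cells, and Lce3c and Lce3f share 35.3% of their 3′ stretches, so they cannot be told apart fully.

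Between genotypes, 8 genes (0.254%) were higher and 11 (0.349%) lower in Brca2mut/WT under both treatments. Tnfaip2, a TNF-induced gene, was 97.4 and 128 CPM in Brca2mut/WT against 32.1 and 20 CPM in wild type, and had a UMI in 15 and 16 cells against 34 and 28. Plac8 (49.8 and 135 against 2.49 and 22.1 CPM), Tslp (4.33 and 123 against 0 and 0.35), the chemokine Cxcl5 (220 and 120 against 53.8 and 21.7) and the hair follicle protein gene Tchh (57.3 and 24.2 against 17.8 and 7.36) were the others named. In Brca2mut/WT HU, Plac8 came from 4 cells, of which 1 held 79.7% of the UMIs, and Tslp from 2 cells, of which 1 held 92.0%. For Cxcl5, 1 cell held 64.5% and 56.0% of the UMIs in the Brca2mut/WT libraries. At a threshold of 500 CPM the smaller log2 ratios of Plac8 and Tslp turned to -2.97 and -0.53. Gm17660 (4.33 and 0 against 74.5 and 10.5), Crct1 (51.9 and 0 against 436 and 24.9), S100a7a (10.8 and 1.10 against 68.1 and 26.6), Lalba (2.16 and 6.59 against 14.3 and 134) and Defb14 (4.33 and 1.10 against 191 and 7.36) were lower. A single wild-type control cell held 99.8% of the Crct1, 99.0% of the S100a7a and 99.3% of the Defb14 UMIs, and 1 wild-type HU cell held 70.1% of the Lalba UMIs. Gm17660 was seen in 16 wild-type control cells, 1 of which held 28.2% of the UMIs, and in 2 wild-type HU cells, 1 of which held 90%. Without the cell holding most UMIs at least 1 of the 2 log2 ratios of Crct1, S100a7a and Defb14 turned, to 2.65, 1.90 and 0.81, and in single-tag cells to 3.53, 2.27 and 0.55. With the cell holding most UMIs of each gene left out of each library, 11, 18, 2 and 17 genes were past the fold in place of 19, 29, 8 and 11, of which 8, 12, 2 and 4 were shared. Most of the genes past the fold in either comparison were thus lost once 1 cell per library was left out.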

How the data were processed

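The authors deposited 1 filtered matrix of UMI counts per library (genes and 4 antibody tags by barcodes, mm10). Per the submitters' notes, reads were processed with Cell Ranger 6.0.2, Seurat 4.0 and R 4.1.3, while the matrix headers name Cell Ranger 6.1.1. The counts were used as deposited. CPM were taken over gene features, and tags were assigned at 20 or more tag UMIs with at least 75% on 1 tag. Counts summed per class and library were compared with edgeR 4.0.16 in R 4.3.3 (TMM, filterByExpr, glmQLFit and glmQLFTest, library as block, Benjamini-Hochberg adjustment), leaving out the 6 genes that define classes. The fit was also run on counts simulated from basal means with a single fixed dispersion. That setting does not model genes whose UMIs lie mostly in 1 cell, so it cannot speak for them. Shares have exact Clopper-Pearson intervals. The study derived its organoids from several mice per condition, but nothing used here ties cells of a library to a mouse, so p-values measure the spread between these 4 libraries, which may be technical. Precision rests on 2805656, 2855189, 924472 and 910902 UMIs over the squamous-like cells of each library. Barcodes were not filtered for doublets.

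The cells and gene lists were chosen with earlier results of these data known. Text names, per list, up to 4 called genes with the largest differences at 20 CPM or more, the defining markers, the 10 largest rises and falls of a contrast, and the 5 between libraries. Sbsn, Lor, Tgm1, Ivl, Dsp, Ly6d, Lgals7, Itga6, Mki67, Tpm2, Cald1 and Lmod1 were chosen after their values were seen, as were the 3 CPM limit on list members and settings that left out members with 1 rule UMI or the top cell of each gene. Cells with Krt14 under 300 CPM were too few (2, 11, 6 and 8) to describe genes against HR- luminal cells.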

Additional observations from a re-analysis of the deposited data

Results flagged for a closer look

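For the following genes the difference between squamous-like cells and another class of the same library had opposite signs in the libraries of 2 conditions. None of these differences between conditions was tested, since each condition is 1 library. Differences are log2 ratios of CPM with 1 CPM added, in the order wild-type control, wild-type HU, Brca2mut/WT control and Brca2mut/WT HU, followed by the mean difference between the conditions.

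AW112010 in squamous-like minus basal cells was -2.18, 2.32, -1.83 and 2.59, a gap of 4.46 between HU and control libraries, and against HR- luminal cells the gap was 3.54. In each library 1 cell held 38.8% to 57.7% of its squamous-like UMIs, and with cells taken at 500 CPM the smaller of its log2 ratios of HU to control turned to -1.81. The interferon-induced genes Ifit3 and Ifit3b lay below basal cells in both control libraries and above them in both HU libraries: Ifit3 was -0.61, 1.62, -2.13 and 1.89 (gap 3.12), and Ifit3b had a gap of 2.60. Ly6c1 had a gap of 2.22 and Prlr, the prolactin receptor, one of 3.07, both also against basal cells and higher with HU. Ly6c1 was -1.67, 0.76, -1.80 and 0.21. Prlr was -2.83, 1.59, -1.69 and 0.02, so in the Brca2mut/WT HU library squamous-like and basal cells were nearly level. In the Brca2mut/WT libraries 1 cell held 61.5% and 88.2% of the Ly6c1 UMIs. Against HR- luminal cells, Cdkn1a went the other way, at 1.26, -0.18, 0.77 and -0.98 (gap -1.59), and Defb6, seen in 3 cells, had a gap of 5.00.

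Between genotypes, Brca2mut/WT minus wild type and against basal cells, Tslp had a gap of 4.48, Cxcl5 of 0.69 and Ly6a of 0.24. Tslp was seen in 1 wild-type cell and in 1 and 2 Brca2mut/WT cells.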

How the results depend on the processing

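Against basal cells, the number of genes higher ran from 452 to 638 and of genes lower from 673 to 876 over alternatives of the fit and of the cells taken (other normalisation, filters, thresholds, DESeq2 1.42.0, single-tag cells, deeper cells, each library left out). Against HR- luminal cells the ranges were 1454 to 1799 and 1750 to 2304, and for Krt14-high cells 381 to 468 and 623 to 788. Counting only genes with at least 3 CPM over the compared class gave 323 higher and 689 lower against basal cells and 762 higher and 1709 lower against HR- luminal cells, with fewer genes counted. No named gene of these 3 contrasts reversed: 1022, 1410 and 677 values kept their call and 39, 35 and 35 lost it. The few Krt14-low cells against HR- luminal cells gave 39 lower genes with DESeq2, and 55 to 166 higher and 89 to 281 lower genes when each library was left out. Shares moved beyond their intervals at 200 CPM (wild-type HU 3.16%), at 500 CPM (1.51%, 1.91% and, for Brca2mut/WT HU, 0.607%) and in single-tag cells (wild-type HU 2.09%).

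Between libraries, single-tag cells gave 18 genes lower with HU, 500 CPM gave 22 lower in Brca2mut/WT, and leaving out the top cell of each gene gave 11, 18, 2 and 17 genes. Reversals (log2) in single-tag cells were Cnfn 1.78, Crct1 4.86 with HU and 3.53 by genotype, S100a7a 2.27 and Defb14 0.55. At 500 CPM they were AW112010 -1.81, Plac8 -2.97 and Tslp -0.53, and without the top cell Crct1 0.26 and 2.65, S100a7a 1.90 and Defb14 0.81. The cause was not tested. Class comparisons were paired by library, and without that block 504 and 792 genes were higher and lower than in basal cells. No pairing between conditions was made, since each has 1 library.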
